A study of Mus musculus with 10 samples.

Results

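Mechanosensitive ion channels were followed as a set of 10 genes, Piezo1, Piezo2, Trpv4, Trpv2, Trpc1, Trpm7, Pkd1, Pkd2, Tmem63a and Tmem63b, in mouse Achilles tendon after conditional loss of Mkx. The members were chosen by gene name from 4 channel families, out of 32285 genes in the count table, and all 10 were among the 16017 genes that passed the filter on low counts. RNA was measured by RamDA-seq, a full-length total RNA method made for very small inputs. The protein of Mkx, Mohawk, is a transcription factor with a homeodomain that is needed for a normal collagen matrix in tendon. The 3 genotypes were Mkx-CreER/flox (3 libraries), which is called the knockout here, and the controls Mkx-CreER/+ (3 libraries) and Mkx flox/+ (4 libraries). All mice, controls included, received tamoxifen at 20 mg/kg at 6 weeks of age, and the tendons were taken 4 weeks later. CreER is a Cre recombinase switched on by tamoxifen, and its allele is named after Mkx. The sources used here do not say whether that allele itself disrupts Mkx, which exons are floxed or how much of the tendon recombined. The labels call the libraries replicates without saying that each is 1 animal, so p-values measure the spread between these libraries.

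Mechanosensitive channels open when the membrane is stretched, sheared or bent, and the calcium that most of them let in is one of the earliest signals of a loaded cell. PIEZO1 and PIEZO2 are large trimeric cation channels, and PIEZO1 is known to sense tendon loading. The TRP family contributes channels that respond to swelling, heat, lipids or membrane stress. Polycystins work largely at the primary cilium and in the endoplasmic reticulum, and TMEM63 proteins are the animal relatives of the plant osmosensing OSCA channels.

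The libraries held 8680934 to 22656417 counts. Levels are given as CPM, the read count divided by the TMM-scaled library total in megareads, and 3 counts equal 0.126 to 0.36 CPM. Mkx itself was at 26.1, 32.4 and 30.5 CPM in the knockout libraries 1, 4 and 5, against 91.4 to 93.8 in Mkx-CreER/+ and 121 to 187 in Mkx flox/+. Against both controls Mkx fell, with a log2 fold change of -2.04 (SE 0.176, edgeR adjusted p = 0.000149). The levels in Mkx-CreER/+ were all below those in Mkx flox/+, a pattern that 3.89% of all genes showed. The log2 difference was -0.78 (95% interval -1.16 to -0.41). Its edgeR p was 0.000499 unadjusted and 0.489 adjusted over all genes tested. The 14 tendon fibroblast markers were all detected and held 4.16 to 5.4% of the counts in the knockout, 6.59 to 8.63% in Mkx-CreER/+ and 10.3 to 14.7% in Mkx flox/+. Skeletal muscle markers held 8.28 to 13.2%, 3.61 to 8.99% and 1.89 to 5.75% in the same order.

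Across the whole set, most channel transcripts stayed within the spread of the libraries. Against both controls 1 of 10 members, Trpv2, was called lower at an edgeR adjusted p under 0.05 and 0 were called higher, and 2 had an unadjusted p under 0.05. Of all genes tested, 4.65% were called in that comparison, 3.03% higher and 1.62% lower. Of the members, 4 had a positive and 6 a negative log2 fold change, with a median of -0.21 and a range from -1.02 to 0.31, and the median over all genes tested was 0.02. Against Mkx flox/+ alone 2 of 10 members, Trpv2 and Tmem63a, were called lower and 0 higher, where 7.27% of all genes were called, 4.37% higher and 2.9% lower. Against Mkx-CreER/+ alone 0 of 10 members were called by edgeR or DESeq2, and 1 had an unadjusted p under 0.05. In that comparison edgeR called only 0.00624% of all genes, which is Mkx alone. The limma voom fit called 1 member there, and 715 of the 16017 genes tested. Between the controls 0 of 10 members were called by edgeR, DESeq2 or voom, with 1 at an unadjusted p under 0.05. The share of all genes called there was 0% with edgeR and voom, and DESeq2 called 37 genes. The 3 knockout comparisons share libraries, so their values are not independent of each other.

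**Figure D1:**
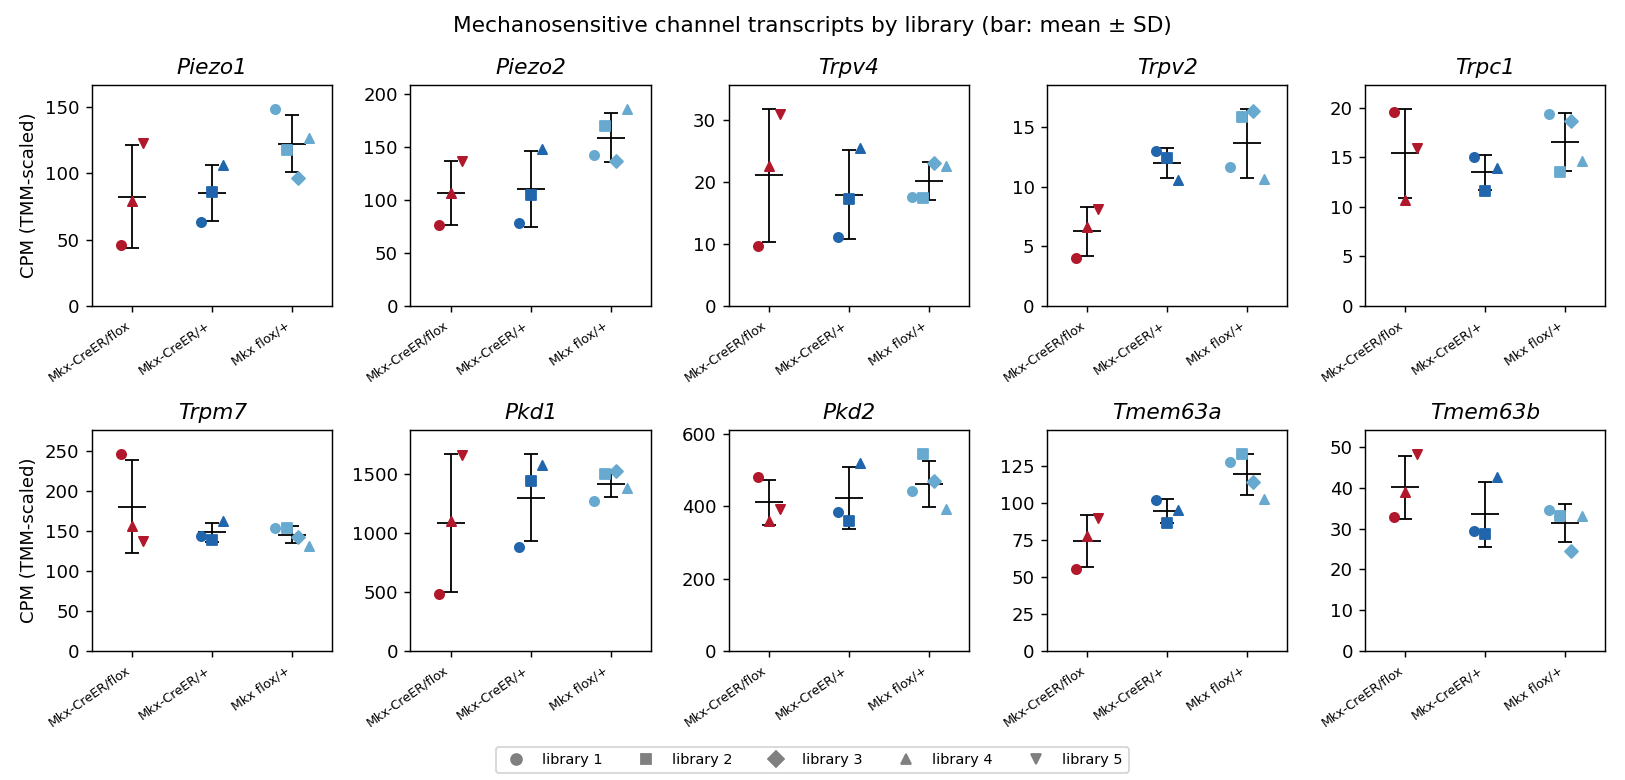
Level of each channel in CPM (TMM-scaled, vertical axes from 0) in the 3 genotypes, with 1 point per library shaped by the number in its column name and a bar for the mean ± SD. Trpv2 is the member whose 3 knockout libraries (4.07 to 8.13 CPM) all lie below the 7 control libraries (10.6 to 16.4 CPM).

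The level of the channels relative to each other was compared per length, as CPM per kilobase of exon. Polycystin transcripts were the most abundant, with Pkd1 at 73.7 ± 20.9 and Pkd2 at 42.7 ± 6.55 CPM per kb (mean ± SD, n = 10 libraries). Tmem63a followed at 22.0 ± 5.16, then Trpm7 at 13.8 ± 2.92, Piezo1 at 9.98 ± 3.16 and Piezo2 at 7.48 ± 2.13 CPM per kb. Tmem63b at 6.8 ± 1.38 and Trpv4 at 4.85 ± 1.59 CPM per kb came next, and Trpv2 at 2.44 ± 0.865 and Trpc1 at 1.91 ± 0.389 were the lowest. Against the transcriptome of this tissue, Pkd1 was above 97.5% of the tested genes that have a length and Trpc1 above 33.5%.

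Neighbours in this order were compared within each library. Pkd2 exceeded Tmem63a in 10 of 10 libraries. Trpm7 exceeded Piezo1 in 7 and Piezo2 exceeded Tmem63b in 6 of 10, so the neighbours in these pairs did not differ beyond their spread. On exon length Trpv2 exceeded Trpc1 in 8 of 10 libraries and stood in place 9 in both controls. In the knockout it was last at 1.4 ± 0.458 against 1.92 ± 0.559 CPM per kb for Trpc1 (SD, n = 3). On the longest transcript instead, Trpv2 was at 3.27 against 2.96 for Trpc1 in Mkx-CreER/+ and 3.72 against 3.63 in Mkx flox/+. In the knockout it was at 1.71 against 3.385. The group means thus kept their order on both lengths, and the gap between them depended on the length used. Piezo1 exceeded Piezo2 in 10 of 10 libraries on exon length. With the longest transcript in place of all exons the mean log2 ratio of Piezo1 to Piezo2 was -0.01, so the order of these 2 genes depends on the length used.

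**Figure D2:**
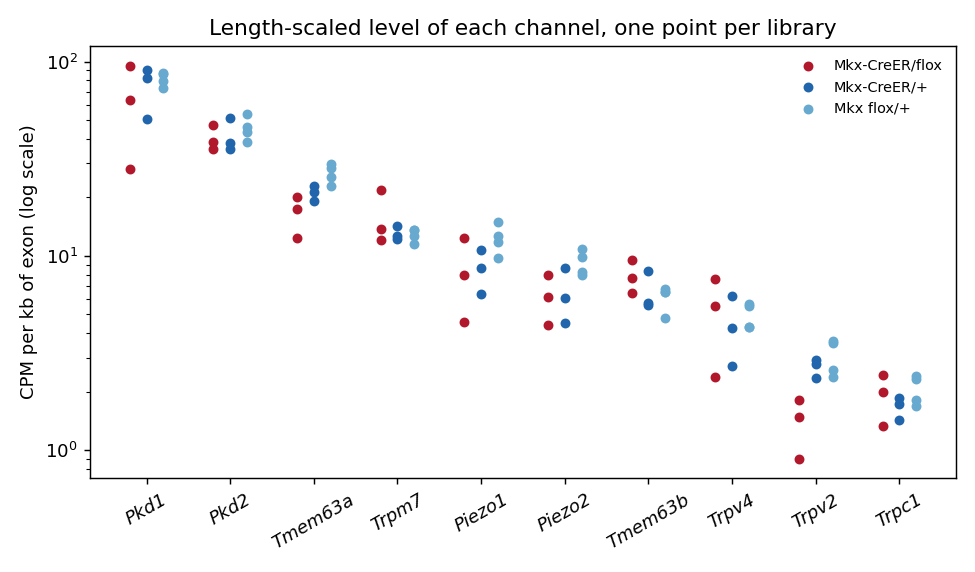
Level of each channel in CPM per kb of exon on a log axis, 1 point per library coloured by genotype, ordered by the mean over 10 libraries. Pkd1 and Pkd2 stand at the top and Trpv2 and Trpc1 at the bottom, and the knockout points of Trpv2 reach down to 0.908 CPM per kb.

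PIEZO1 is the stretch-gated cation channel of many connective tissue and endothelial cells. Piezo1 (ENSMUSG00000014444, chr8:122481698-122551329, minus strand, mm10) was at 45.6, 78.8 and 122 CPM in knockout libraries 1, 4 and 5. It was at 63.5, 85.7 and 106 CPM in the Mkx-CreER/+ libraries 1, 2 and 4, and at 149, 117, 96.5 and 126 CPM in the Mkx flox/+ libraries 1 to 4. The knockout values span those of Mkx-CreER/+ on both sides, and library 5 reaches into the Mkx flox/+ range. Against both controls the log2 fold change was -0.31 (SE 0.257, 95% interval -0.86 to 0.24, edgeR adjusted p = 0.549), and no change was detected. Ctu2 overlaps 24.6% of the exon length of Piezo1 from the opposite strand, and no source used here says whether reads were counted by strand. Ctu2 was counted at 5.52 to 12 CPM, far under Piezo1.

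PIEZO2 is best known as the touch and proprioception channel of sensory endings. Piezo2 (ENSMUSG00000041482) was at 76.1, 106 and 137 CPM in the knockout, 77.7, 105 and 148 in Mkx-CreER/+, and 142, 170, 137 and 186 in Mkx flox/+, in the same order of libraries. The knockout and Mkx-CreER/+ ranges nearly coincide, and the Mkx flox/+ libraries lie at the upper end. Its log2 fold change against both controls was -0.31 (SE 0.217, 95% interval -0.78 to 0.15, edgeR adjusted p = 0.452).

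The log2 differences of Piezo1 and Piezo2 from Mkx flox/+ were both negative in the knockout and in Mkx-CreER/+. Fold changes against single genotypes are given for these 2 genes, Trpv2 and Tmem63a only, a choice made after the values were seen. Knockout against Mkx flox/+ gave -0.57 for each (adjusted p = 0.249 for Piezo1 and 0.165 for Piezo2), and Mkx-CreER/+ against Mkx flox/+ gave -0.52 for each (adjusted p = 1 and 0.99). Knockout against Mkx-CreER/+ gave -0.05 for each, with 95% intervals from -0.69 to 0.59 and from -0.59 to 0.49. No Piezo difference passed the edgeR test with all libraries in any of the 4 comparisons. Against Mkx flox/+, Piezo1 was called without knockout library 5 (-0.98, edgeR adjusted p = 0.0321), and Piezo2 was called by limma voom (-0.53, adjusted p = 0.0464). Over all genes, these fits called 1585 and 2853 genes, where the main fit called 1165. Within each library, the log2 ratio of Piezo1 to Piezo2 per length was 0.35 ± 0.289 in the knockout (SD, n = 3) and 0.42 ± 0.221 in the controls (n = 7), a difference of -0.07 that did not exceed the spread (two-sided exact permutation p = 0.692). Markers of endothelial cells and of Schwann cells and nerve also varied, though the neuronal genes Nefl and Nefm reached at most 0.37 and 0.491 CPM. Endothelial markers, 4 of 16 called higher and 0 lower against both controls, held 0.0894 to 0.141% of counts in the knockout and 0.0725 to 0.11% in the controls. Schwann cell and nerve markers, 2 of 16 tested called higher and 0 lower, held 0.0548 to 0.278% and 0.0645 to 0.127%. Their part in the Piezo levels was not tested.

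TRPV4 is a calcium channel opened by swelling and shear that is well known in cartilage and tendon. Trpv4 (ENSMUSG00000014158, chr5:114622152-114658421, minus strand) was at 9.68, 22.6 and 31.0 CPM in the knockout, 11.1, 17.3 and 25.4 in Mkx-CreER/+, and 17.5, 17.5, 23.0 and 22.5 in Mkx flox/+. The knockout holds both its lowest and its highest value. The log2 fold change against both controls was 0.15 (SE 0.307, edgeR adjusted p = 0.837), with a 95% interval from -0.51 to 0.81, the widest of the TRP members.

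TRPV2 is a calcium-permeable channel linked to membrane stretch and is also known in macrophages. Trpv2 (ENSMUSG00000018507, chr11:62574486-62600515, plus strand) was at 4.07, 6.63 and 8.13 CPM in the knockout, from 45, 135 and 110 counts. It was at 13.0, 12.4 and 10.6 CPM in Mkx-CreER/+ and at 11.7, 15.9, 16.4 and 10.7 CPM in Mkx flox/+. All 3 knockout libraries lie below all 7 controls, a pattern that 3.12% of all genes showed. Trpv2 fell to 49.2% of the controls, a log2 fold change of -1.02 (SE 0.255, 95% interval -1.57 to -0.48, edgeR adjusted p = 0.0363). The two-sided exact permutation test over libraries gave p = 0.00833, the smallest that 3 against 7 libraries allow. Trpv2 also fell against Mkx flox/+ alone (log2 fold change -1.12, edgeR adjusted p = 0.0263), where all knockout libraries again lay below, as for 9.5% of all genes. Against Mkx-CreER/+ alone the log2 fold change was -0.93 (SE 0.288, edgeR adjusted p = 0.329). The libraries did not overlap there either, as for 6.14% of all genes. There limma voom gave an adjusted p of 0.0356, in a fit that called 715 of all genes tested. Between the controls the log2 difference was -0.19 (95% interval -0.76 to 0.38).

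Macrophage transcripts moved with Trpv2. All 18 macrophage markers were detected, 12 of them were called lower and 0 higher in the knockout against both controls, and all 18 had a negative log2 fold change, with a median of -1.18. Their summed share of counts was 0.0762 to 0.105% in the knockout, 0.131 to 0.294% in Mkx-CreER/+ and 0.188 to 0.291% in Mkx flox/+, so that the knockout lies below both controls, whose ranges overlap each other. Csf1r, the receptor that macrophages need to survive, was at a mean of 103 CPM in the knockout against 245 and 287 CPM in Mkx-CreER/+ and Mkx flox/+ (log2 fold change -1.37, edgeR adjusted p = 0.0199). In bulk tissue, fewer cells of a type and less RNA per cell cannot be told apart. With the mean macrophage level as a covariate, chosen after the data were seen, the log2 fold change of Trpv2 was -0.68 with adjusted p = 0.9997, in a fit that called 1 of all genes tested. Since the macrophage share and the knockout separate the libraries the same way, they cannot be told apart. Of 12420 genes with at least a moderate level (average log2 CPM of 1 or more), those most like Trpv2 across the 10 libraries were Pomgnt2 (Pearson r = 0.978), Shisa5 (r = 0.971) and Laptm5 (r = 0.968), the last a lysosomal membrane protein of blood cells. These r values describe 10 libraries that share genotype, depth and tissue makeup.

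The call on Trpv2 depends on which libraries enter the fit. Its log2 fold change against both controls stayed between -1.26 and -0.82 when each library was left out in turn, and 11 of 21 alternatives kept the call. It was lost without knockout library 1 (-0.82, adjusted p = 0.105) or 4 (adjusted p = 0.105), without Mkx-CreER/+ library 1 (adjusted p = 0.0802) or 2 (0.081), and without Mkx flox/+ library 1 (0.0544), 2 (0.0635) or 3 (0.0637). These fits, each without 1 library, called 64 to 379 of all genes tested, where the main fit called 744. The Trpv2 call was also lost with the muscle level as a covariate (-0.85, adjusted p = 0.282), in a fit that called 12 of all genes tested. With the level of the other tendon fibroblast markers as a covariate (-1.23, adjusted p = 0.9995) the call was lost in a fit that called 0. The call against Mkx flox/+ alone was lost without knockout library 1 (-0.92, adjusted p = 0.0644) or 4 (0.0729), and without Mkx flox/+ library 2 (0.0661) or 3 (0.0736). Those fits called 518 to 640 of all genes tested, where the main fit called 1165.

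The promoter window of Trpv2 is shown because this is the member called lower against both controls. It spans 250 bases before to 50 after the most upstream of 3 RefSeq starts (GRCm38.p6, chr11:62574236-62574535, plus strand), and capitals mark the single match to GAGGAA, the core of sites bound by the myeloid factor PU.1.

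Trpv2: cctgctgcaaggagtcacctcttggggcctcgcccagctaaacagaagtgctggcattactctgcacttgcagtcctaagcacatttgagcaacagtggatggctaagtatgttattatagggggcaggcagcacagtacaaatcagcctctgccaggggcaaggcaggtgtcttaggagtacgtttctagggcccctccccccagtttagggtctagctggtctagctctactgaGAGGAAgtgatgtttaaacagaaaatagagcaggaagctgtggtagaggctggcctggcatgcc

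The windows of all 9 members in the RefSeq table, which has none for Piezo2, were searched on both strands for 5 motifs, none of which contains another. Of 32851 RefSeq windows of this length, 13.6% hold the TATA box core TATAAA and 37.4% the CCAAT box. The GC box GGGCGG occurs in 35.7%, the PU.1 core GAGGAA in 28.3%, and the core of Meis and Tgif sites, TGACAG, in 19.2%. GAGGAA was found in the overlapping windows of Trpv2 starts 1 and 2 and in that of Pkd1, but not at Trpv2 start 3. TATAAA was found in the windows of Piezo1 and of Trpv2 start 2, and TGACAG in none of those searched. The Trpv2 window shown, that of start 1, holds 2 CpG dinucleotides at a GC content of 53%, where the median window holds 7 at 52.7%. A match is a description of letters only.

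TRPC1 is a subunit of store-operated and stretch-linked cation channels. Trpc1 (ENSMUSG00000032839, chr9:95705082-95750375, minus strand) was at 19.6, 10.7 and 16 CPM in the knockout, 15.0, 11.6 and 13.9 in Mkx-CreER/+, and 19.4, 13.5, 18.6 and 14.6 in Mkx flox/+. The 3 groups overlap throughout. The log2 fold change was 0.04 (95% interval -0.43 to 0.51, edgeR adjusted p = 0.944), and its sign turned under 8 of 21 alternatives, upper-quartile scaling among them (-0.02).

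TRPM7 joins a magnesium and calcium channel to a protein kinase. Trpm7 (ENSMUSG00000027365, chr2:126791565-126876230, minus strand) was at 246, 156 and 137 CPM in the knockout, 144, 138 and 162 in Mkx-CreER/+, and 153, 154, 143 and 131 in Mkx flox/+. Knockout library 1 stands above the other 9, which lie between 131 and 162 CPM. The log2 fold change was 0.30 (95% interval -0.08 to 0.67, edgeR adjusted p = 0.364), and -0.02 without that library.

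**Figure D3:**
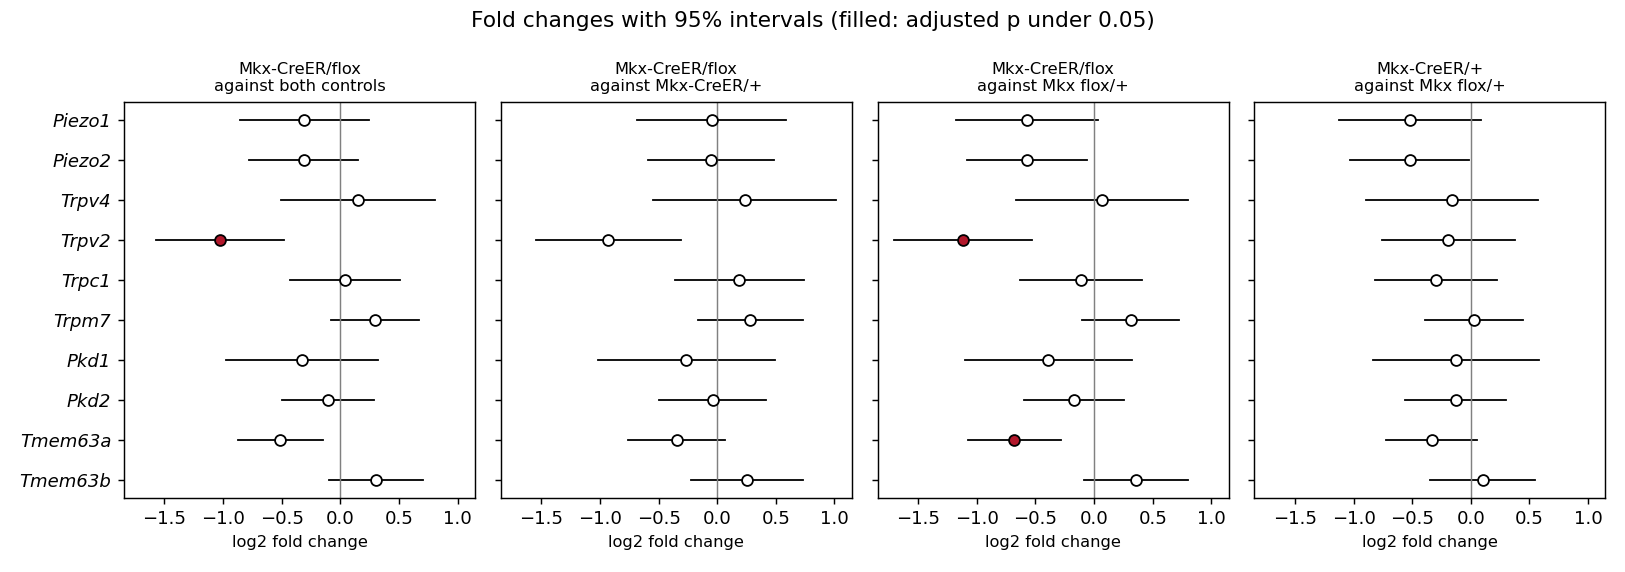
Log2 fold change of each channel (horizontal axes) with its 95% interval in 4 comparisons, where filled points have an edgeR adjusted p under 0.05. Trpv2 is filled against both controls and against Mkx flox/+, Tmem63a only against Mkx flox/+, and no point is filled in the other panels.

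Polycystin-1, the product of Pkd1, is a very large membrane receptor that pairs with the cation channel polycystin-2. Pkd1 (ENSMUSG00000032855, chr17:24549834-24596508, plus strand) was at 486, 1105 and 1660 CPM in the knockout, 885, 1440 and 1575 in Mkx-CreER/+, and 1274, 1497, 1522 and 1382 in Mkx flox/+. Knockout library 1 was the lowest of all 10 and knockout library 5 the highest. The log2 fold change was -0.33 (SE 0.304, 95% interval -0.97 to 0.32, edgeR adjusted p = 0.6), and without library 1 it was 0.0045. Pkd1 shares 3.98% of its exon length with Tsc2 on the other strand.

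Pkd2 was the steadiest member, with a coefficient of variation of 15.3% over the 10 libraries. Pkd2 (ENSMUSG00000034462, chr5:104459450-104505819, plus strand) was at 480, 359 and 393 CPM in the knockout, 385, 361 and 520 in Mkx-CreER/+, and 442, 545, 469 and 392 in Mkx flox/+. The groups overlap. Its log2 fold change of -0.11 (95% interval -0.49 to 0.29, edgeR adjusted p = 0.806) did not exceed the spread. The log2 ratio of Pkd1 to Pkd2 was -0.76, 0.84 and 1.3 in the knockout libraries 1, 4 and 5. In the 7 controls it lay between 0.42 and 1.22, and the difference between knockout and controls was -0.37 (two-sided exact permutation p = 0.442). Per length of all exons, Pkd2 was the higher of the pair only in knockout library 1. With the longest transcript in place of all exons, the knockout means were 76.5 CPM per kb for Pkd1 and 78.65 for Pkd2. The order within this pair thus depends on the length used.

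TMEM63A and TMEM63B are stretch-activated cation channels of the OSCA family. Tmem63a (ENSMUSG00000026519, chr1:180942344-180975112, plus strand) was at 55.6, 78.1 and 90.2 CPM in the knockout, 102, 86.6 and 95.5 in Mkx-CreER/+, and 128, 134, 115 and 103 in Mkx flox/+. The 3 genotypes lie in steps, with every Mkx flox/+ library above every other library and knockout library 5 above Mkx-CreER/+ library 2 as the single crossing between the other groups. Against Mkx flox/+ Tmem63a fell to 62.4%, a log2 fold change of -0.68 (SE 0.185, edgeR adjusted p = 0.0383). Against both controls the log2 fold change was -0.51 (95% interval -0.87 to -0.15, edgeR adjusted p = 0.0959), and against Mkx-CreER/+ alone it was -0.34 (adjusted p = 0.561). Mkx-CreER/+ lay below Mkx flox/+ without overlap, as 3.89% of all genes did, with a log2 difference of -0.34 (edgeR adjusted p = 1). The call against Mkx flox/+ held in 11 of 22 alternatives and was lost with the muscle level as a covariate (-0.33, adjusted p = 0.574), with the macrophage or tendon fibroblast level (adjusted p = 0.765 and 0.9997), and in a fit of only these genotypes (0.0671). It was also lost without knockout library 1 (-0.53, adjusted p = 0.0865) or 4 (adjusted p = 0.0957), without Mkx-CreER/+ library 2 (0.0515), and without Mkx flox/+ library 1 (0.0884), 2 (0.0918) or 3 (0.0753). The fits without these single libraries called 455 to 1016 of all genes tested, where the main fit called 1165.

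Tmem63b (ENSMUSG00000036026, chr17:45660171-45686905, minus strand) was at 32.9, 39.0 and 48.4 CPM in the knockout, 29.4, 28.6 and 42.7 in Mkx-CreER/+, and 34.6, 33.2, 24.5 and 33.2 in Mkx flox/+. The groups overlap, and the log2 fold change of 0.31 against both controls did not pass the test (95% interval -0.09 to 0.71, edgeR adjusted p = 0.381). Small stretches of both genes are shared with antisense neighbours, 3.5% of the exon length of Tmem63a with 2210411M09Rik, and 5.65% and 2.08% of that of Tmem63b with Gm16172 and Mrpl14.

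The ratio within the TMEM63 pair left no overlap between knockout and controls. The share of all gene pairs that do so was not counted, so this separation is not shown to be particular to the pair. The log2 ratio of Tmem63a to Tmem63b, per length, was 0.94, 1.18 and 1.08 in the knockout, 1.98, 1.78 and 1.34 in Mkx-CreER/+, and 2.07, 2.19, 2.41 and 1.81 in Mkx flox/+. All 3 knockout libraries lay below all 7 controls. The mean was 1.07 ± 0.122 in the knockout (SD, n = 3) and 1.94 ± 0.341 in the controls (n = 7), a difference of -0.87, or 0.546 times the ratio of the controls. The two-sided exact permutation p of 0.00833 is the smallest that 3 against 7 libraries allow, and adjusted over the 12 ratio tests it was 0.1. Against Mkx flox/+ alone the difference was -1.05 (exact p = 0.0286, adjusted 0.171). Against Mkx-CreER/+ alone it was -0.63 (exact p = 0.1, the smallest that 3 against 3 allow, adjusted 0.343), and between the controls it was -0.42 (exact p = 0.114). Leaving out any 1 library kept the difference from both controls between -0.97 and -0.80. Both genes have similar GC content (54.9% and 56.9%), and with the GC trend of each library taken off, the difference was -0.91.

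**Figure D4:**
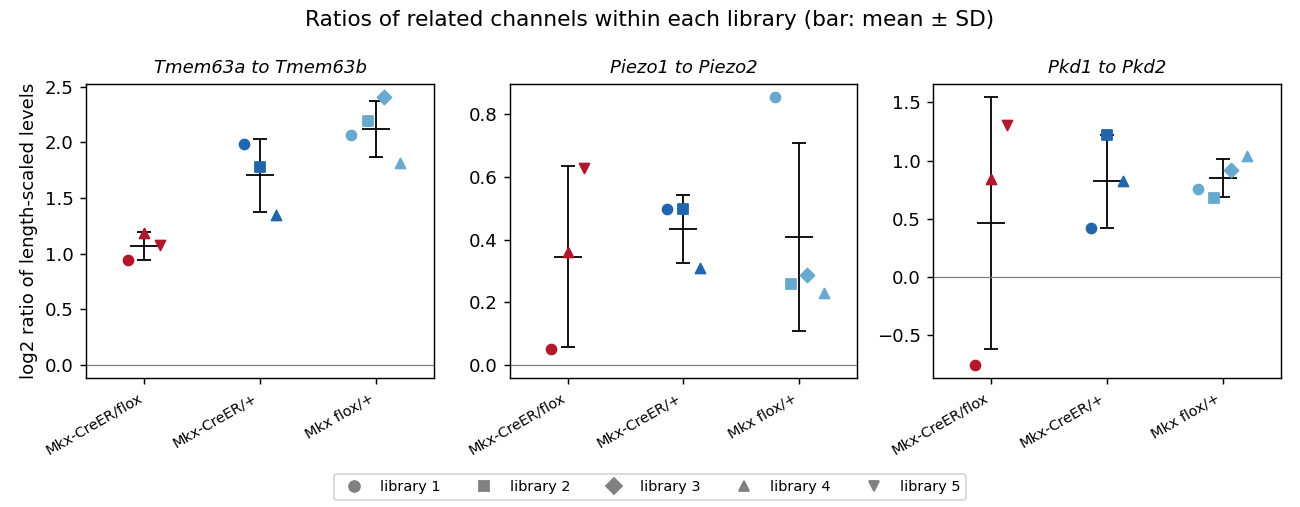
Log2 ratio of the length-scaled levels of 3 pairs of related channels in each library, with the mean ± SD of each genotype as a bar. For Tmem63a to Tmem63b the knockout libraries (0.94 to 1.18) lie below all controls (1.34 to 2.41), and for the other pairs the genotypes overlap.

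The promoter windows of the TMEM63 pair are shown because the ratio of these genes did not overlap between knockout and controls. They lie at chr1:180942268-180942567 (plus strand) and chr17:45686169-45686468 (minus strand) in GRCm38.p6, from RefSeq, and capitals mark matches to CCAAT and GGGCGG on either strand.

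Tmem63a: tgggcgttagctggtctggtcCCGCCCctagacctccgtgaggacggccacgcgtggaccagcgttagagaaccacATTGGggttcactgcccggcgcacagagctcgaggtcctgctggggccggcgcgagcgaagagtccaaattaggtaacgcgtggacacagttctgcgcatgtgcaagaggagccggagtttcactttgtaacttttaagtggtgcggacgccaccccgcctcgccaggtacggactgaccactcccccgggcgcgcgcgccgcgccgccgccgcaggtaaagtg

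Tmem63b: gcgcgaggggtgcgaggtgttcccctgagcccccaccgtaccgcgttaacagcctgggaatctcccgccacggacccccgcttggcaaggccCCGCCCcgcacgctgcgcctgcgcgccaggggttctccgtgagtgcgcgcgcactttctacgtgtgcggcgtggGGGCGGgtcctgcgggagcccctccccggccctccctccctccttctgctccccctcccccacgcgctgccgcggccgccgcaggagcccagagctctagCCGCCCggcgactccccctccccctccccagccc

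Both windows are rich in CpG, with 33 in Tmem63a and 34 in Tmem63b. Tmem63a holds 1 match to CCAAT and 1 to GGGCGG, the GC box of Sp factors, and Tmem63b holds 3 to GGGCGG and 0 to CCAAT. At 65% and 76% GC they differ from the Trpv2 window, which holds neither motif.

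Knockout library 1 stood apart from the rest in its trend with GC content, and part of the channels departed from that trend. In this library the trend of all tested genes was 0.48 on the log2 scale above the mean of the libraries at 40% GC and -0.60 at 60% GC, while those of the other 9 libraries lay between -0.21 and 0.24. Of the members, GC-rich Piezo1 (59.1% GC), Trpv4 (59.0%) and Pkd1 (56.8%) deviated by -1.04, -0.94 and -1.32 there. The trend at their GC content was only -0.58, -0.58 and -0.47. Trpm7, the member of lowest GC content (40.1%), deviated by 0.68 where the trend was 0.47. Tmem63a deviated by -0.79 where the trend was -0.35, Trpc1 by 0.38 where it was 0.22, and Pkd2 by 0.16 where it was 0.01. Tmem63b, at 56.9% GC, deviated by only -0.05 where the trend was -0.48, and Piezo2, at 49.96% GC, deviated by -0.70 where the trend was -0.05. Trpv2 deviated by -1.30 where its GC content of 54.0% corresponds to a trend of -0.29. The same library had the highest share of muscle markers (13.2%) and of mitochondrial transcripts (8.85%). With the GC trend of every library taken off, an alternative chosen after the data were seen, Trpv2 was still called lower against both controls (-0.92, edgeR adjusted p = 0.0343), and Tmem63a against Mkx flox/+ was not (-0.53, adjusted p = 0.0536).

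**Figure D5:**
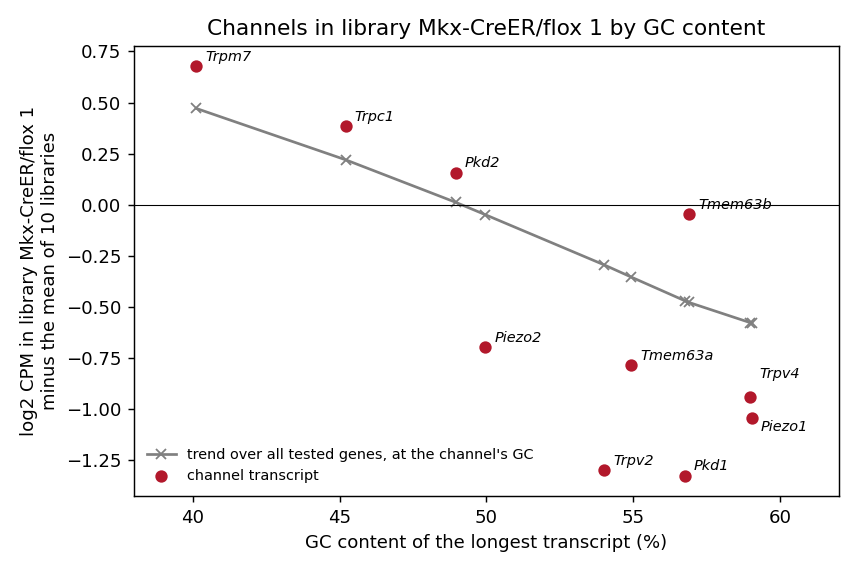
Deviation of each channel in knockout library 1 from the mean of 10 libraries (log2 CPM, vertical axis) against the GC content of its longest transcript (percent, horizontal axis), with crosses for the trend of all tested genes at the same GC content. Deviations run from 0.68 for Trpm7 to -1.32 for Pkd1.

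Genes with a profile like that of each other channel were named by Pearson r over the 10 libraries, as a description of libraries that share genotype, depth and base composition. Piezo1 was closest to Lrp5 (r = 0.98), a Wnt co-receptor, and to Edc4 and Mical1. Piezo2 was closest to Pcdhgc3 (r = 0.946), Il17rd and Adcy3, Trpv4 to Upf1 (r = 0.972), Myo9b and Jak3, and Trpc1 to Ubqln2 (r = 0.95), Spry2 and Wipf1. Trpm7 was closest to Mtdh (r = 0.988), Zfp638 and Ppp4r3b, Pkd1 to U2af2 (r = 0.977), Plekhm1 and Tmem150a, and Pkd2 to Arid2 (r = 0.919), Rabgap1l and Dync2h1, the motor of retrograde transport in cilia. Tmem63a was closest to Cdc25b (r = 0.977), Cd82 and Bet1l, and Tmem63b to Tatdn2 (r = 0.954), Usp6nl and Plekha6. Part of these names depend on the measure or on knockout library 1. By rank correlation (Spearman), U2af2, Plekhm1 and Tmem150a stood at ranks 40, 72.5 and 109 for Pkd1, and Shisa5 at 58 for Trpv2. Without knockout library 1, Zfp638 and Ppp4r3b stood at ranks 20 and 61 for Trpm7. Lrp5 stood at rank 1 for Piezo1 both ways.

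Other genes of mechanical and calcium signalling were counted from lists against both controls. Of 48 other mechanically gated or stretch-linked channels, 28 were tested and 0 were called (median log2 fold change 0.21). The 2 of smallest p were Tmc7, of the family of hair-cell channels (1.40, edgeR adjusted p = 0.0709), and Lrrc8a, the obligatory subunit of the volume-regulated anion channel (-0.56, adjusted p = 0.0886). Of 26 tested primary cilium genes 0 were called, with a median of -0.07. Its genes of smallest p were the intraflagellar transport genes Ift20 at -0.62 and Ift81 at 0.73 (adjusted p = 0.145 and 0.154).

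The remaining lists each held a few called genes, to be set against the 3.03% of all genes tested that were called higher and the 1.62% called lower. With lists this small, 1 or 2 called genes are close to that share and nothing is read from them. Of 19 tested channel partners and membrane regulators 3 rose and 0 fell. They were Flnc, the muscle filamin (mean 636 CPM in the knockout, 247 in Mkx-CreER/+ and 125 in Mkx flox/+, log2 fold change 1.86), Atp2a2, the calcium pump of the sarcoplasmic reticulum (1.97), and Pacsin3, which binds TRPV4 (1.07), with a list median of 0.14. Of 23 tested calcium store, entry and extrusion genes, 1 rose, the T-type calcium channel gene Cacna1h (2.44, at a mean of only 3.18 CPM in the knockout), and the median was -0.08. Of 24 calcium response genes 2 rose, the calcineurin regulators Rcan2 (1.37) and Rcan1 (0.96), with a median of 0.02. Of 18 YAP and TAZ response genes 1 rose, Ankrd1 (1.66), also a stress gene of striated muscle, with a median of -0.03. Of 32 skeletal muscle markers 8 were called higher and 0 lower, with a median of 0.73. The other 24 did not pass the test, among them the fast-fibre genes Myh4 (-1.11), Actn3 (-0.78) and Pvalb (-0.53), and Ckm (0.03). With the muscle level as a covariate, Flnc was at 1.59 (adjusted p = 0.13), Atp2a2 at 1.46 (0.331), Pacsin3 at 1.10 (0.134) and Cacna1h at 2.15 (0.335). Rcan2 was at 0.98 (adjusted p = 0.226), Rcan1 at 0.80 (0.302) and Ankrd1 at 2.02 (0.0855), so none of the 7 was called in that fit. Each of the 7 also lost its call when single libraries were left out, between 3 and 7 of the 10 by gene. Knockout library 4 was among those for all 7, and the fit without it called 64 of all genes tested, where the main fit called 744.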

How the data were processed

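The authors deposited raw, whole-number counts for 10 libraries with Ensembl gene identifiers, and used fastp and STAR on mm10, per the submitters' processing notes. No source used here gives versions, the counter, its annotation or its strand setting. Columns of Mkx flox/+ were matched to samples. Those of Mkx-CreER/+ (1, 2 and 4) and Mkx-CreER/flox (1, 4 and 5) were matched by genotype only, since the labels number them 1 to 3, and libraries are named by column number. Replicates differed by more than sampling noise (chi-square per degree of freedom of 21.7 to 108).

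Symbols, positions and exon lengths came from GENCODE vM21, which named 32235 of 32285 genes. Genes were kept by filterByExpr, scaled by TMM and fitted in edgeR 4.0.16 (R 4.3.3) with the quasi-likelihood test, 1 term per genotype over all 10 libraries and equal weight for each control genotype. Calls are at a Benjamini-Hochberg adjusted p under 0.05 over 16017 genes. Ratios used an exact permutation test over libraries, two-sided. DESeq2 1.42.0 and limma 3.58.1 (voom) were alternatives. The edgeR fit was tested on simulated data. Intervals are 95%.

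The 10 members, the other gene lists and the marker lists were chosen with earlier results of these data known. Every member is named. From each other list, up to 4 called genes of smallest p against both controls are eligible, or the 2 of smallest p where none is called. The 3 genes of highest Pearson r to each member (log2 CPM, prior count 2) leave out numbered gene models and sex-linked Xist and Y genes. Of the marker lists, paratenon and sheath fibroblast had 1 of 12 genes called lower, cartilage 1 of 7, epidermis 1 of 3 and mural and smooth muscle 2 of 12 called higher, and adipocyte and erythroid 0 of 8 and 0 of 5. The GC offset (a smooth trend of each library's log2 deviations on transcript GC content) and the macrophage and tendon fibroblast covariates (mean log2 CPM of each list) were added after seeing the data. Promoter windows are from RefSeq (GRCm38.p6).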

Additional observations from a re-analysis of the deposited data

Results flagged for a closer look

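In groups of 4 libraries, a value was marked when the gap between an extreme library and its nearest neighbour took up more of the range of the group than Dixon's 95% critical value for 4 samples. Mkx flox/+ is the only genotype with 4 libraries, so the rule was applied to it alone. Of 26 sets of values tested, 3 were marked, and chance marks about 1 in 20. Tmem63b had a gap of 0.862 of its range (24.5 to 34.6 CPM), with library 3 low. The log2 ratio of Piezo1 to Piezo2 had a gap of 0.909 (0.23 to 0.86), with library 1 high. The share of macrophage markers had a gap of 0.897 (0.188 to 0.291%), with library 3 high. Trpv2 was at 16.4 CPM in library 3, and at 15.9 CPM in library 2, whose macrophage share was the lowest of the 4.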

How the results depend on the processing

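No paired analysis was possible because the column numbers of Mkx-CreER/+ and Mkx-CreER/flox are not the replicate numbers of the labels and nothing says that a number marks a shared animal or day.

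Against both controls (1 member called) voom called 2, the muscle, macrophage and tendon fibroblast covariates 0 each, and leaving out single libraries 0 to 2. Against Mkx flox/+ (2 called) the 3 covariates and a fit of only the groups compared called 0, the GC offset 1, voom 3, and leaving out single libraries 0 to 3. Against Mkx-CreER/+ (0 called) voom called 1. Leaving out single libraries gave 0 there and between the controls. The value of Mkx was -1.95 with adjusted p = 0.9995 under the tendon fibroblast covariate and -2.11 to -1.97 without single libraries. The cause of these changes was not tested. Over all genes, 744 calls against both controls became 1459 with DESeq2, 2991 with voom, 12, 1 and 0 with the muscle, macrophage and tendon fibroblast covariates, and as few as 64 without knockout library 4. The 1165 calls against Mkx flox/+ became 1866, 2853, 33, 1 and 0, and at least 455 without single libraries. The 1 call against Mkx-CreER/+ became 126 with DESeq2, 715 with voom, 9 with no filter and 117 without Mkx-CreER/+ library 4. Between the controls DESeq2 called 37 against 0. The macrophage and tendon fibroblast shares do not overlap between knockout and controls.

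Some signs turned, and of the genes that did so Fcgr3 alone had been called. Trpc1 was -0.346 with voom, -0.0209 with upper-quartile scaling, -0.0474 with the GC offset, and -0.192 to 0.248 without single libraries (negative without Mkx-CreER/+ 2, knockout 1 or 5, or Mkx flox/+ 2 or 4). Trpv4 was -0.293 and -0.333 with the macrophage and tendon fibroblast covariates and -0.239 to 0.468 without single libraries. Trpm7 ranged from -0.0154 to 0.444 and Pkd1 from -0.785 to 0.0045, turning only without knockout 1. Tmem63b was -0.293 and Fcgr3 0.0159 with the macrophage covariate, and Piezo1 0.101 and Ift20 0.703 with the tendon fibroblast covariate. Piezo1 against Mkx flox/+ was 0.00129 with the latter. Against Mkx-CreER/+, Piezo1 was 0.087 with voom, 0.0582 and 0.201 with the muscle and tendon fibroblast covariates, 0.0111 with the GC offset, and -0.463 to 0.22 without single libraries. Piezo2 there was 0.162 with voom and -0.288 to 0.1996 without single libraries.

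For ratios, a change of gene length cannot alter a difference between groups. The muscle, macrophage and tendon fibroblast covariates were not run on ratios. Within these limits, the difference in the Tmem63a to Tmem63b ratio from both controls kept its sign in the alternatives run (-0.973 to -0.796 without single libraries). Without single libraries, that of Piezo1 to Piezo2 was -0.214 to 0.075 against both controls, -0.229 to 0.0602 against Mkx-CreER/+, -0.203 to 0.0871 against Mkx flox/+, and -0.0331 to 0.175 between the controls. With the GC offset it was 0.102, 0.036 and 0.152 in the first 3. That of Pkd1 to Pkd2 was -0.794 to 0.236, -0.779 to 0.251, -0.805 to 0.225 and -0.226 to 0.173 in the same order, and 0.0504 between the controls with the GC offset. The mean Piezo1 to Piezo2 level ratio was -0.391 with no division by length and -0.00751 with the longest transcript.

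Trpv2 and Trpc1 rest on the fewest reads, and intervals of the members with wide spread, Trpv4 and Pkd1, allow changes in either direction.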
